A study of Arabidopsis thaliana with 4 samples.

Results

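The 10 genes described here are the day-phased and evening-phased repressors of the Arabidopsis circadian clock and the proteins that act on them. They are given by a list of gene identifiers, which sets no threshold on any measured value but was drawn up with earlier results of these data known: PRR9, PRR7, PRR5, PRR3 and TOC1 of the pseudo-response regulator family, LUX, ELF3 and ELF4 of the evening complex, and GI and ZTL. They are 10 of the 32833 genes counted, and 42 of 79373 introns in a table of intron coverage scores and 4 of 4690 introns in a table of intron retention events lie in them. Genes are called by their usual symbols in the clock literature, LUX being PCL1 in RefSeq, and gene positions are those of the TAIR10 count table.

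PolyA-selected mRNA was sequenced from whole Arabidopsis thaliana seedlings that were 7 days old, had been grown on Murashige and Skoog medium containing sucrose and were left untreated. The mutant group held 2 libraries (replicates 1 and 3) from plants labelled MAC3B Q77A/D81A-GFP, whose transgene encodes MAC3B fused to GFP with Q77A and D81A changed. The wild-type group held 2 libraries (replicates 1 and 2) of the accession Col-0. MAC3B is related to Prp19 of yeast, a ubiquitin ligase that works with the spliceosome. The promoter of the transgene, the genetic background of the line and the number of lines are not given in the labels, and no sample carries MAC3B-GFP without the substitutions. The labels give neither the light regime nor the hour of harvest, although transcripts of most of these genes rise and fall over the day, so a shift of rhythm and a change of level cannot be told apart. In whole seedlings, fewer cells of a type and less RNA per cell cannot be told apart either.

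In the plant clock the PRR proteins bind the promoters of the dawn regulators CCA1 and LHY and repress them in a wave that PRR9 opens in the morning, PRR7 and PRR5 continue through the day and TOC1 closes in the evening. ELF3, ELF4 and LUX form the evening complex, which represses PRR9, GI, LUX and growth genes in the early night, while CCA1 and LHY in turn repress evening genes through the evening element. GI and the F-box protein ZTL act after translation, GI stabilising ZTL and ZTL sending TOC1 and PRR5 to degradation. Several clock transcripts, PRR7 and PRR9 among them, are known to be alternatively spliced.

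The mutant libraries held 23936296 and 30105517 counts and the wild-type libraries 23436163 and 24245300, and expression is given in CPM, counts scaled to a common library total. MAC3B was at 1150 and 947 CPM in mutant replicates 1 and 3, against 156 and 162 CPM in wild-type replicates 1 and 2, and its homologue MAC3A was at 58.0 and 59.7 CPM in the mutant against 57.6 and 58.9 CPM in wild type. The mutant pair was less alike than the wild-type pair, the chi-square per gene being 10.8 in the mutant and 4.48 in wild type. Shoot and root markers were all detected, as in whole seedlings, and 0 of the 3 shoot and 0 of the 5 root markers passed the edgeR test. LHCB3, of the light-harvesting antenna, was at 5360 and 6020 CPM in the mutant and at 6180 and 6220 CPM in wild type, and all 3 shoot markers had log2 fold changes between -0.17 and -0.12. The root markers had values on both sides of 0 and none passed. CASP1, of the endodermis, was at 55.9 and 57.3 CPM in the mutant and at 50.1 and 46.2 CPM in wild type, while TIP2;3, a root aquaporin, was at 121 and 134 CPM in the mutant and at 163 and 142 CPM in wild type, and PRP3, of root hairs, at 16.1 and 15.9 CPM in the mutant and at 19.1 and 24.5 CPM in wild type. EXPA7, also of root hairs, went the other way from PRP3, at 6.38 and 10.9 CPM in the mutant and at 8.57 and 6.51 CPM in wild type. MYB36, of the endodermis, was at 5.80 and 7.14 CPM in the mutant and at 6.10 and 6.05 CPM in wild type. The part of these differences in the results was not tested. Separate growth of the seedlings behind each library is not stated in the labels, so p-values reflect the spread among these 4 samples alone.

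All 10 members were abundant enough to be tested. PRR7 fell in the mutant and the other 9 did not pass the test, so that 1 of 10 members was called (quasi-likelihood test of edgeR, adjusted over 20483 genes by Benjamini-Hochberg, at 0.05). Of all tested genes 1.33% were called lower, 1.68% were called higher and 3.01% were called in either direction. The log2 fold change of mutant over wild type was below 0 for 8 members and above 0 for 2, with a median of -0.15, while 49.9% of all tested genes were below 0 and their median was 0. Both mutant libraries lay below both wild-type libraries for 6 members (PRR9, PRR7, PRR5, LUX, ELF3 and GI) and above them for 2 (PRR3 and ELF4), against 22.4% and 22.3% of all tested genes. The groups overlapped for TOC1 and ZTL.

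**Figure D1:**
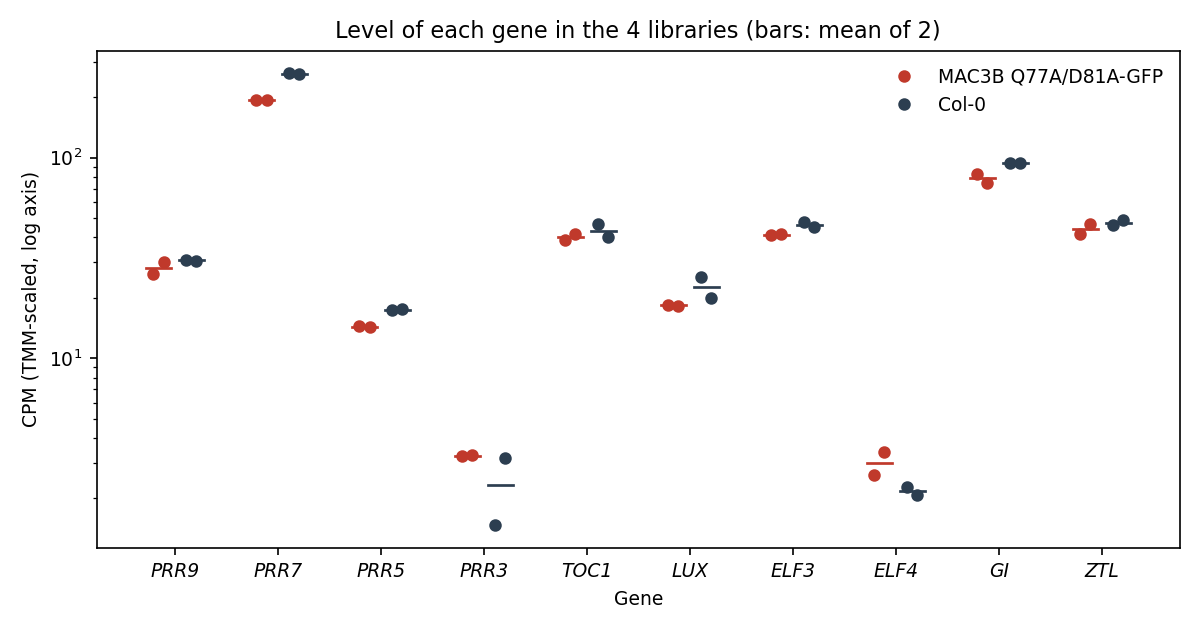
Level of each of the 10 genes in CPM (log axis), with mutant libraries left of wild-type libraries, each point a library and each short line the mean of 2. PRR7 stands highest in both genotypes, at 193 and 194 CPM in the mutant and 263 and 262 CPM in wild type, and its libraries do not overlap between genotypes.

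Per kilobase of summed annotated exon, which allows a rough comparison of genes, the 10 members took the same order of mean level in both genotypes. PRR7 was highest at 59.9 ± 0.0393 CPM per kilobase in the mutant and 81.2 ± 0.264 in wild type (mean ± SD, n = 2 here and for the levels that follow). GI followed at 18.3 ± 1.24 in the mutant and 21.8 ± 0.0113 in wild type, and PRR3 was lowest at 1.17 ± 0.0107 in the mutant and 0.828 ± 0.429 in wild type. Between these ends stood ZTL, ELF3, TOC1, PRR9, PRR5, LUX and ELF4, in that order. The summed exon length of LUX, 3916 bases, takes in nearly its whole gene, although its RefSeq transcript has 2 introns. Its level per kilobase, and so its place in the order, may be understated. Neighbours whose libraries overlapped were GI with ZTL, TOC1 with PRR9 and LUX with ELF4 in the mutant, and ELF3 with TOC1 and TOC1 with PRR9 in wild type. The highest member exceeded the lowest by 51.6-fold and 51.2-fold in the mutant libraries and by 155-fold and 71.7-fold in the wild-type libraries, a ratio that turned on the few PRR3 counts.

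PRR7 (AT5G02810, chromosome 5, 637681 to 642030, minus strand) encodes a repressor of CCA1 and LHY that also takes part in the response of the clock to temperature and sugar. It was at 193 and 194 CPM in mutant replicates 1 and 3, against 263 and 262 CPM in wild-type replicates 1 and 2. The libraries of each genotype nearly coincided, and the genotypes lay well apart. PRR7 fell by 0.44 on the log2 scale (SE 0.0716, 95% interval -0.59 to -0.29, n = 2 per genotype), to 0.738 of the wild-type level, with an adjusted p of 0.00112 (Benjamini-Hochberg, edgeR). Without wild-type replicate 1 the log2 fold change was again -0.44 but the call was lost (edgeR, Benjamini-Hochberg adjusted p = 0.0857). In the authors' deposited table, where the direction of the comparison is not named, its log2 fold change was -0.44 with an adjusted p of 5.93e-07 (DESeq2). DESeq2 run here as mutant over wild type gave -0.44 with the same SE of 0.0737. The deposited value is therefore read as mutant over wild type. Only 2.78% of tested genes had a higher mean level in CPM, and 13.5% had a larger change in either direction. As a share of the summed CPM per kilobase of the 5 PRR genes, PRR7 made up 62.4% and 60.9% in the mutant libraries and 66.1% and 66.8% in the wild-type libraries, so it remained most of the PRR mRNA in each.

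Over the 4 libraries the pattern most like that of PRR7 was that of AT3G54363, at a distance of 0.0135 between centred log2 CPM values, followed by THIC (AT2G29630), the thiamine synthesis gene whose product makes the pyrimidine part of the vitamin, at 0.0238 and AT1G12790 at 0.0255. These were nearest among 15239 genes with at least 5 CPM on average. THIC also fell, with a log2 fold change of -0.42 (edgeR, Benjamini-Hochberg adjusted p = 0.00489), while AT3G54363 at -0.44 (adjusted p = 0.419) and AT1G12790 at -0.43 (adjusted p = 0.308) did not pass the same edgeR test with Benjamini-Hochberg adjustment. A measure over 4 libraries mostly orders genes by the size and evenness of their difference between genotypes.

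PRR9 (AT2G46790, chromosome 2, 19232607 to 19235179, plus strand), the earliest of the PRR wave, was at 26.3 and 30.1 CPM in the mutant, against 31.0 and 30.6 CPM in wild type. Mutant replicate 3 lay just under the wild-type pair, and the log2 fold change was -0.13 (SE 0.112, 95% interval -0.36 to 0.11; edgeR, Benjamini-Hochberg adjusted p = 0.673). It was -0.03 without mutant replicate 1 and -0.23 without mutant replicate 3. PRR5 (AT5G24470, chromosome 5, 8356204 to 8358546, minus strand), a day-phased repressor and substrate of ZTL, was at 14.4 and 14.3 CPM in the mutant, against 17.3 and 17.6 CPM in wild type. The genotypes did not overlap, on fewer counts than for PRR7 (351 and 435 in the mutant, 400 and 422 in wild type), and its log2 fold change of -0.28 (SE 0.14, 95% interval -0.57 to 0.01) did not pass (edgeR, Benjamini-Hochberg adjusted p = 0.366). The log2 fold change of PRR7 lies within this interval, which therefore includes a fall of that size.

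TOC1 (AT5G61380, chromosome 5, 24674963 to 24678550, plus strand), the last of the wave and also a repressor of CCA1 and LHY, was at 39.0 and 41.5 CPM in the mutant, against 46.4 and 40.1 CPM in wild type. The libraries overlapped, with a log2 fold change of -0.10 (SE 0.102; edgeR, Benjamini-Hochberg adjusted p = 0.722) that became 0.0074 without wild-type replicate 1. PRR3 (AT5G60100, chromosome 5, 24197971 to 24201415, minus strand), which protects TOC1 from ZTL, was the least expressed PRR gene. It had 79 and 100 counts in the mutant, against 34 and 76 counts in wild type, or 3.25 and 3.29 CPM in the mutant and 1.47 and 3.17 CPM in wild type. Wild-type replicate 2 stood close to the mutant pair and wild-type replicate 1 far below it. The log2 fold change of 0.49 (SE 0.371, 95% interval -0.28 to 1.26; edgeR, Benjamini-Hochberg adjusted p = 0.594) therefore had a wide interval that spans 0, and it was 0.04 without wild-type replicate 1 and 1.15 without wild-type replicate 2.

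In the evening complex, LUX (AT3G46640, chromosome 3, 17183042 to 17186959, plus strand), its MYB-like DNA-binding subunit, was at 18.5 and 18.2 CPM in the mutant, against 25.3 and 20.0 CPM in wild type. Both mutant libraries were lower, but the wild-type pair was itself spread, and the log2 fold change of -0.30 (SE 0.136, 95% interval -0.59 to -0.02) did not pass (edgeR, unadjusted p = 0.0369, Benjamini-Hochberg adjusted p = 0.294). It was -0.13 without wild-type replicate 1 and -0.46 without wild-type replicate 2. Reads were counted without strand, and AT3G46650, on the other strand, shares 17.8% of the exon bases of LUX. That gene had 10 and 11 counts in the mutant and 8 and 14 counts in wild type. ELF3 (AT2G25930, chromosome 2, 11058944 to 11063324, plus strand), the scaffold that also senses temperature, was at 40.9 and 41.5 CPM in the mutant, against 47.5 and 45.2 CPM in wild type. The genotypes did not overlap, with a log2 fold change of -0.17 (SE 0.0952, 95% interval -0.37 to 0.03; edgeR, Benjamini-Hochberg adjusted p = 0.426).

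ELF4 (AT2G40080, chromosome 2, 16734294 to 16734953, minus strand), a small protein that strengthens ELF3, was rarely counted, with 64 and 103 counts in the mutant and 53 and 50 in wild type. It was at 2.63 and 3.39 CPM in the mutant, against 2.29 and 2.09 CPM in wild type. Unlike the other evening complex genes its value was above 0, with a log2 fold change of 0.46 (SE 0.351, 95% interval -0.27 to 1.20; edgeR, Benjamini-Hochberg adjusted p = 0.596), or 0.26 without mutant replicate 3. Whether ELF4 moved differently from LUX and ELF3 was not tested.

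GI (AT1G22770, chromosome 1, 8061751 to 8067790, plus strand), a large evening protein that stabilises ZTL and promotes flowering with FKF1, was at 82.5 and 75.0 CPM in the mutant, against 93.6 and 93.7 CPM in wild type. The wild-type libraries coincided and both mutant libraries lay below them. Its log2 fold change of -0.25 (SE 0.0834, 95% interval -0.42 to -0.08) had the smallest p among the members after PRR7 and did not pass after adjustment (edgeR, unadjusted p = 0.00697, Benjamini-Hochberg adjusted p = 0.121). GI passed without mutant replicate 1, at -0.32 (edgeR, Benjamini-Hochberg adjusted p = 0.00841). ZTL (AT5G57360, chromosome 5, 23241320 to 23244590, plus strand), the blue-light receptor F-box protein, was at 41.5 and 46.4 CPM in the mutant, against 45.9 and 48.8 CPM in wild type. Its libraries overlapped, with a log2 fold change of -0.10 (SE 0.0977; edgeR, Benjamini-Hochberg adjusted p = 0.693). It was -0.03 without mutant replicate 1 and -0.19 without mutant replicate 3.

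The rest of the clock was followed with 43 genes in lists by role, of which 41 were tested, 4 rose and 1 fell (edgeR, Benjamini-Hochberg adjusted p under 0.05), with a median log2 fold change of 0. CCA1, which the PRR proteins repress, was at 62.2 and 65.1 CPM in the mutant, against 35.5 and 32.2 CPM in wild type, and LHY at 36.2 and 29.7 CPM in the mutant, against 17.0 and 15.9 CPM in wild type. The genotypes were far apart for both. Their log2 fold changes were 0.91 for CCA1 (SE 0.0960, adjusted p = 5.46e-06) and 1.00 for LHY (SE 0.127, adjusted p = 6.78e-05) in edgeR with Benjamini-Hochberg adjustment, and both calls held in every alternative tried. RVE8, a related activator of PRR5, TOC1 and other evening genes, was at 19.9 and 22.0 CPM in the mutant, against 14.5 and 13.9 CPM in wild type (log2 fold change 0.56, SE 0.137; edgeR, Benjamini-Hochberg adjusted p = 0.0268). With these, 3 of the 10 dawn and REVEILLE genes rose and the median of that list was 0.38. Of the 4 LNK genes, coactivators that work with RVE8, LNK3 rose, at 40.5 and 43.0 CPM in the mutant, against 32.0 and 29.9 CPM in wild type (log2 fold change 0.43, SE 0.102; edgeR, Benjamini-Hochberg adjusted p = 0.0223).

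Relatives of the members did not pass. With 3.01% of all tested genes called, a count of 0 in lists as short as those that follow says little. None of the 4 tested evening complex relatives was called, with a median log2 fold change of -0.29, and neither were FKF1 and LKP2, the other F-box proteins of the ZTL family, with a median of -0.21. Of 7 tested outputs of GI and the evening complex 0 passed, with a median of 0.06. CO, which GI and FKF1 raise, was at 0.576 and 0.593 CPM in the mutant, against 1.47 and 0.960 CPM in wild type, and did not pass (edgeR, Benjamini-Hochberg adjusted p = 0.453). FT had 0 counts in all 4 libraries, which allows at most 0.0988 to 0.130 CPM. Among 8 other clock regulators GRP7, an RNA-binding protein driven by the clock, fell, at 189 and 266 CPM in the mutant, against 315 and 318 CPM in wild type (log2 fold change -0.47, SE 0.105; edgeR, Benjamini-Hochberg adjusted p = 0.0147). Of 6 splicing-related genes whose loss is known to disturb the clock 0 passed. Their log2 fold changes ran from -0.10 to 0.19, the highest being that of PRMT5. RVE8, LNK3 and GRP7 lost their calls without wild-type replicate 1 (edgeR, Benjamini-Hochberg adjusted p = 0.201, 0.160 and 0.156) and without wild-type replicate 2 (0.231, 0.292 and 0.0878). In DESeq2 RVE8 (adjusted p = 0.0549, Benjamini-Hochberg) and GRP7 (0.462) did not pass.

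**Figure D2:**
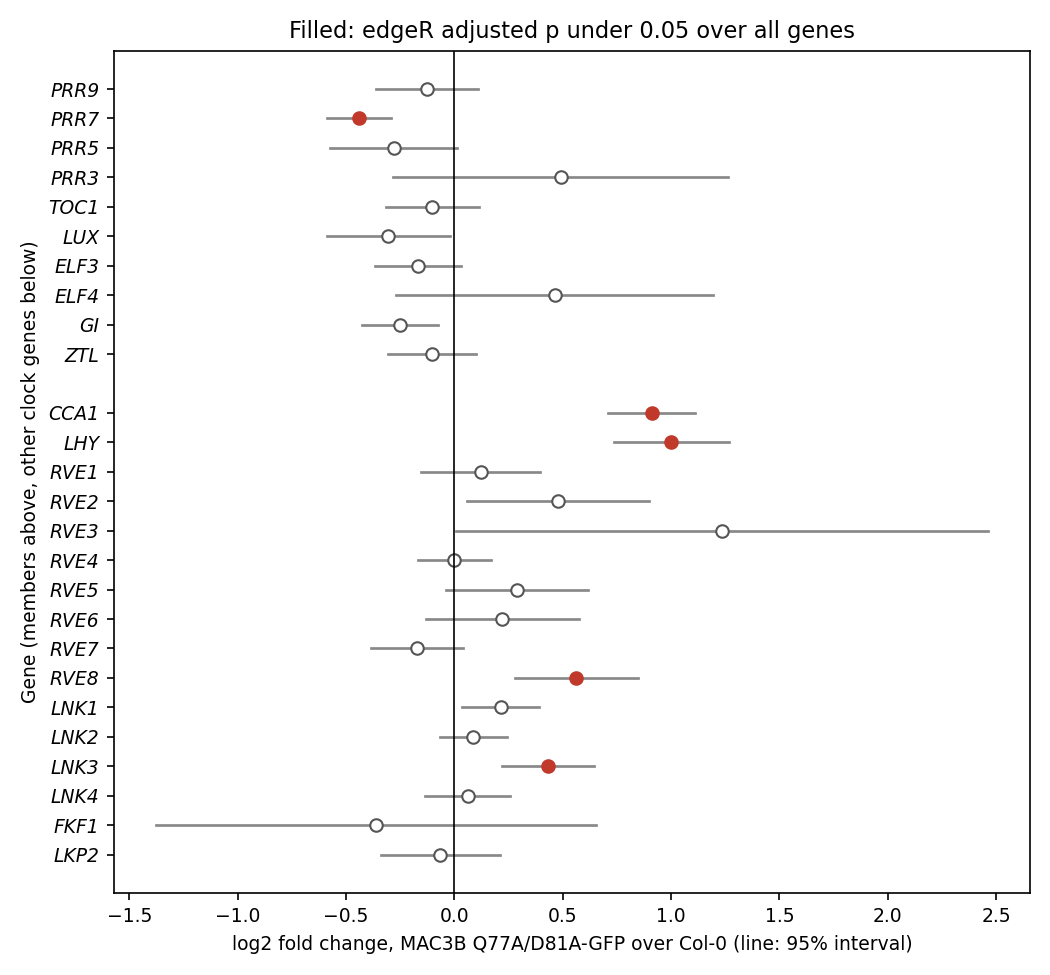
Log2 fold change of mutant over wild type for the 10 genes (above) and for the dawn, REVEILLE, LNK and F-box genes of the clock (below), each with the 95% interval of the edgeR fit, filled where the adjusted p is under 0.05. PRR7 is the filled point among the 10 genes, at -0.44, while CCA1, LHY, RVE8 and LNK3 are filled on the other side of 0.

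The promoters of the members were read for motifs of clock factors, in windows of 300 bases from 250 before to 50 after the outermost annotated start. The evening element (AAATATCT on either strand), which CCA1, LHY and RVE8 bind, was present in 5 of 10 members (PRR9, PRR5, TOC1, LUX and ELF4) and in 5.35% of 32546 windows of all genes. The G-box (CACGTG, its own reverse complement), bound by light-response factors and found among sites of PRR proteins, was present in PRR9, PRR7 and LUX and in 7.11% of all windows. The related CCA1-binding site (AAAAATCT on either strand) was present in PRR5 and in 7.48% of all windows, and GATACG on either strand, part of the site that LUX binds, in ELF3 and ELF4 and in 5.49% of all windows. No matches overlapped. The bases upstream of PRR7, the member that fell, and of LUX, which holds both the G-box and paired evening elements, are shown with these motifs in capitals, from TAIR10 at chr5:642031-642280 (minus strand) and chr3:17182792-17183041 (plus strand), 5′ to 3′.
PRR7 upstream: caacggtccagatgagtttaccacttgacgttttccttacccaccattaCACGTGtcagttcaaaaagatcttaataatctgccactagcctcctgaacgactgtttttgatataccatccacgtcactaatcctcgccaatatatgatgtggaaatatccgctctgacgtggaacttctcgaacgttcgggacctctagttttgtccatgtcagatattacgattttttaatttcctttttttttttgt
LUX upstream: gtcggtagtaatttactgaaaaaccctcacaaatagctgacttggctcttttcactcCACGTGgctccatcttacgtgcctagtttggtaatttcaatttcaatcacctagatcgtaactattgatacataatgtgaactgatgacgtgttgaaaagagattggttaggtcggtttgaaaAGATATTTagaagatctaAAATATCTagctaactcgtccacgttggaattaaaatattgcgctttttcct
The G-box of PRR7 begins at position -201, counting back from -1 at the base before the start. In LUX the G-box begins at -193 and the evening elements at -70 and -52, on opposite strands. ELF4 held 4 evening elements, at -250, -240, -6 and 8, more than any other member. PRR7 held no evening element in this window. A match is a run of letters and no evidence of binding.

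Intron retention was read first from the authors' deposited table of rMATS events, in which 4 introns of the members appear and 774 of 4690 events (16.5%) have a false discovery rate under 0.05. That table compares a group 1 with a group 2 of 2 libraries each without saying which genotype each group is, and the groups are named by these numbers here. The 3 events between coding exons are shown as whole introns, 5′ to 3′ on the gene's strand, with the first 6 and last 3 bases in capitals, from TAIR10 at chr5:640756-640888 (PRR7, minus strand), chr2:19233551-19233637 (PRR9, plus strand) and chr5:24198669-24198747 (PRR3, minus strand).
PRR7 intron 3: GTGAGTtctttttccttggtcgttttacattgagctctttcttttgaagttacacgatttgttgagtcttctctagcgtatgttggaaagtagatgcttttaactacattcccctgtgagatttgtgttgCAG
PRR9 intron 3: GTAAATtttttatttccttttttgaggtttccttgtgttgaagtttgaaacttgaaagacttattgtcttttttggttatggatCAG
PRR3 intron 8: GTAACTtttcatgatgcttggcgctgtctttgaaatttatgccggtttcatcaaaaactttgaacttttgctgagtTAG
Reading on in frame from the exon before, a stop codon appears at codon 16 after the exon boundary in PRR7 intron 3, at codon 16 in PRR9 intron 3 and at codon 11 in PRR3 intron 8. RefSeq annotates each as spliced in some transcripts and retained in others.

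PRR7 intron 3 (133 bases, 38.3% G and C) was among the best measured events of the authors' deposited table, with 2583 junction reads, more than 96.7% of events. Its inclusion level in the authors' deposited table, the share of transcripts that keep the intron after correction for length, was 39.4% and 39.6% in group 1 and 43.8% and 37.7% in group 2. The groups overlapped, and the difference of -1.2 percentage points in the authors' deposited table had a false discovery rate of 0.931. A large share of PRR7 transcripts thus kept this intron in all 4 libraries, at levels that differed between libraries of group 2 by more than between the groups. PRR9 intron 3 (87 bases), with 560 junction reads, was at 17.9% and 13.4% in group 1 and 9.7% and 18.3% in group 2 in the authors' deposited table, again with overlapping groups (difference 1.6 percentage points, false discovery rate 0.938).

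The events of PRR3 rested on few reads. Intron 8 (79 bases) was at 14.0% and 0.0% in group 1 and 49.5% and 19.7% in group 2 in the authors' deposited table, on 47 junction reads, a difference of -27.6 percentage points with a false discovery rate of 0.0992. Intron 1 (473 bases), in the 5′ UTR, was at 20.0% and 23.1% in group 1 and 0.0% and 0.0% in group 2. Its difference of 21.6 percentage points had a false discovery rate of 0.00448 in the authors' deposited table. With it, 1 of the 4 events of the members passed, against 16.5% of all 4690 events, a share that 1 of so few events does not set apart. Intron 1 rested on 29 junction reads, 25 in group 1 and 4 in group 2, and only 5.0% of events had fewer. The level of 0.0% in group 2 thus stands for 4 reads without the intron.

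**Figure D3:**
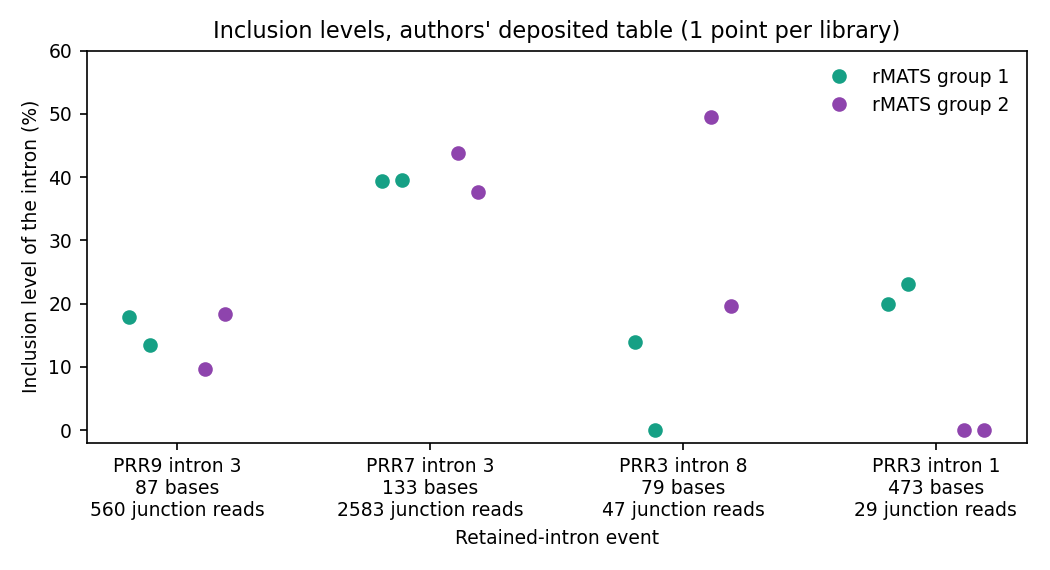
Inclusion level in percent of the 4 member introns in the authors' deposited table, by library of group 1 and group 2, with the junction reads of all 4 libraries under each event. PRR7 intron 3 lies near 40% in all 4 libraries, while the values of PRR3 scatter between 0.0% and 49.5% on few reads.

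The second intron table gives, per intron, a coverage score in 2 mutant and 2 wild-type columns, whose numbers are not tied to replicates here. Multiplied by intron length, every score in a column came to a whole number of units of the same size, within 0.02, so a score divided by that unit (12.7 and 10.1 in the mutant columns, 12.9 and 12.5 in the wild-type columns) is the mean number of reads over each base of the intron. Of the 42 introns of members, 27 were above 0 in some column, 7 were above 0 in all 4 and 15 were at 0 in all 4. They came from GI (13), PRR7 (7), PRR3 (7), PRR5 (5), TOC1 (5), PRR9 (4) and ZTL (1). The introns of LUX and ELF3, intron 3 of PRR7, introns 3 and 6 of PRR9, introns 1, 4 and 8 of PRR3 and intron 2 of ZTL were not analysed here by score, and ELF4 is annotated without introns. Of the 27, 0 passed (limma on log2(score + 1), Benjamini-Hochberg). Of all 41390 tested introns 0 passed (0%) and 739 (1.79%) had an unadjusted p under 0.05, while with introns above 0 in all columns alone 4 passed, none of them in a member. A count of 0 from this test does not show that the introns were alike. Both mutant columns lay above both wild-type columns for 2 of the 27 and below them for 3, against 12.2% and 9.69% of all tested introns.

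The most covered introns of PRR7 and PRR9 are shown 5′ to 3′ from TAIR10, PRR7 intron 5 (chr5:639994-640285, minus strand, 292 bases) with its first 6 and last 3 bases in capitals, and PRR9 intron 2 (chr2:19233323-19233419, plus strand), with both possible GT donors and the last 3 bases in capitals.
PRR7 intron 5: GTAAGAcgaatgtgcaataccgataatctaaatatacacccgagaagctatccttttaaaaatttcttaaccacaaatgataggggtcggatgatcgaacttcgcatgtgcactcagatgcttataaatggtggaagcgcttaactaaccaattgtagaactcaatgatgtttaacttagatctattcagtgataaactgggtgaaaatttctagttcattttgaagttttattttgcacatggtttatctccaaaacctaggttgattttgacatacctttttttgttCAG
PRR9 intron 2: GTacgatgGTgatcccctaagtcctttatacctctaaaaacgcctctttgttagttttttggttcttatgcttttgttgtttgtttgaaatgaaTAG
PRR7 intron 5 scored 517 and 539 in the mutant columns, against 826 and 785 in the wild-type columns, or a mean depth of 40.8 and 53.3 reads per base in the mutant and 64.0 and 62.8 in wild type. Only 0.667% of tested introns had a higher mean score. Its difference on the log2(score + 1) scale was -0.61 (SE 0.28, 95% interval -1.26 to 0.04; limma, unadjusted p = 0.0634, Benjamini-Hochberg adjusted p = 0.625). Both mutant columns were lower, in the same direction as the gene's counts. After the log2 change of the gene's mean CPM was taken away the difference was -0.17 (SE 0.752, limma, Benjamini-Hochberg adjusted p = 0.97). With that SE it cannot be told how much of the intron's difference goes with that of the gene.

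The other PRR7 introns were unevenly covered. Intron 8 scored 407 and 318 in the mutant columns, against 272 and 444 in the wild-type columns, and intron 7 scored 57.6 and 61.9 in the mutant, against 231 and 43.9 in wild type, both with overlapping groups. Intron 4 scored 40.0 and 6.86 in the mutant and 0 in both wild-type columns, and intron 2 scored 0 and 8.71 in the mutant, against 12.7 and 27.1 in wild type. Neither passed (limma, Benjamini-Hochberg adjusted p = 0.625 for each). Along this transcript, therefore, intron 4 was separated upward in the mutant and introns 2 and 5 downward. Intron 5 rested on many reads and intron 4 on a depth of 3.16 and 0.678 reads per base in the mutant. Intron 2 had 0 and 0.861 reads per base in the mutant and 0.98 and 2.17 in wild type.

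The scored window of PRR9 intron 2 begins 8 bases inside the annotated intron of 97 bases, at the second GT, and so covers the 89 bases from an alternative donor. An alternative 5′ splice site in this intron is known to be used more in Arabidopsis prmt5 mutants, which lack an arginine methyltransferase of splicing proteins. The window scored 40.8 and 138 in the mutant columns, against 0 and 15.7 in the wild-type columns, or 3.22 and 13.7 reads per base in the mutant and 0 and 1.26 in wild type. The mutant columns were both higher but differed widely from each other, with a difference of 4.22 on the log2(score + 1) scale (SE 1.91, 95% interval -0.23 to 8.67; limma, unadjusted p = 0.0601, Benjamini-Hochberg adjusted p = 0.625). The window is among the 2336 introns (2.94% of all 79373) whose difference in the authors' deposited table is at least 4 in either direction, as is PRR7 intron 4 at 4.17. Only 41390 of the 79373 introns were above 0 in any column, and the rest had no difference to show. The size also depended on the pseudocount of 1. For the PRR9 window the difference was 5.90 with a pseudocount of 0.1 and 2.44 with a pseudocount of 10. Which donor the spliced reads used was not tested, since the score counts coverage and not junctions.

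The most covered intron of TOC1, intron 4 (84 bases), scored 228 and 118 in the mutant columns, against 218 and 8.48 in the wild-type columns, so that 1 wild-type column set the difference of 1.86 (limma, Benjamini-Hochberg adjusted p = 0.625). TOC1 intron 3 was lower in both mutant columns, at 3.63 and 29.0 against 76.7 and 41.0 in wild type (difference -2.28, SE 1.46; limma, Benjamini-Hochberg adjusted p = 0.625). ZTL intron 1 (830 bases) was evenly covered, at 136 and 115 in the mutant columns, against 89.8 and 134 in the wild-type columns (difference 0.19, SE 0.626; limma, Benjamini-Hochberg adjusted p = 0.944). GI, with the most introns, had 9 of 13 at 0 in all columns. Its most covered, intron 13 (114 bases), scored 24.0 and 0 in the mutant columns, against 25.8 and 0 in the wild-type columns (difference -0.05, SE 3.18; limma, Benjamini-Hochberg adjusted p = 0.998).

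PRR5 intron 3 (155 bases) scored 0 and 65.3 in the mutant columns, against 40.5 and 38.4 in the wild-type columns (difference -2.31, SE 2.17; limma, Benjamini-Hochberg adjusted p = 0.625). The mutant columns lay on either side of the wild-type pair. The highest value for PRR3 was 17.1, in intron 7 (80 bases) in 1 wild-type column and 0 in the other columns. Coverage of the introns thus followed the level of the gene only loosely. PRR7 introns 5 and 8 stood far above the rest, with mean scores over all columns of 667 and 360. PRR7 intron 7, at 98.6, was below TOC1 intron 4, at 143. The other scored introns of PRR7 and all those of GI, the next most abundant member, had mean scores of at most 12.5.

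**Figure D4:**
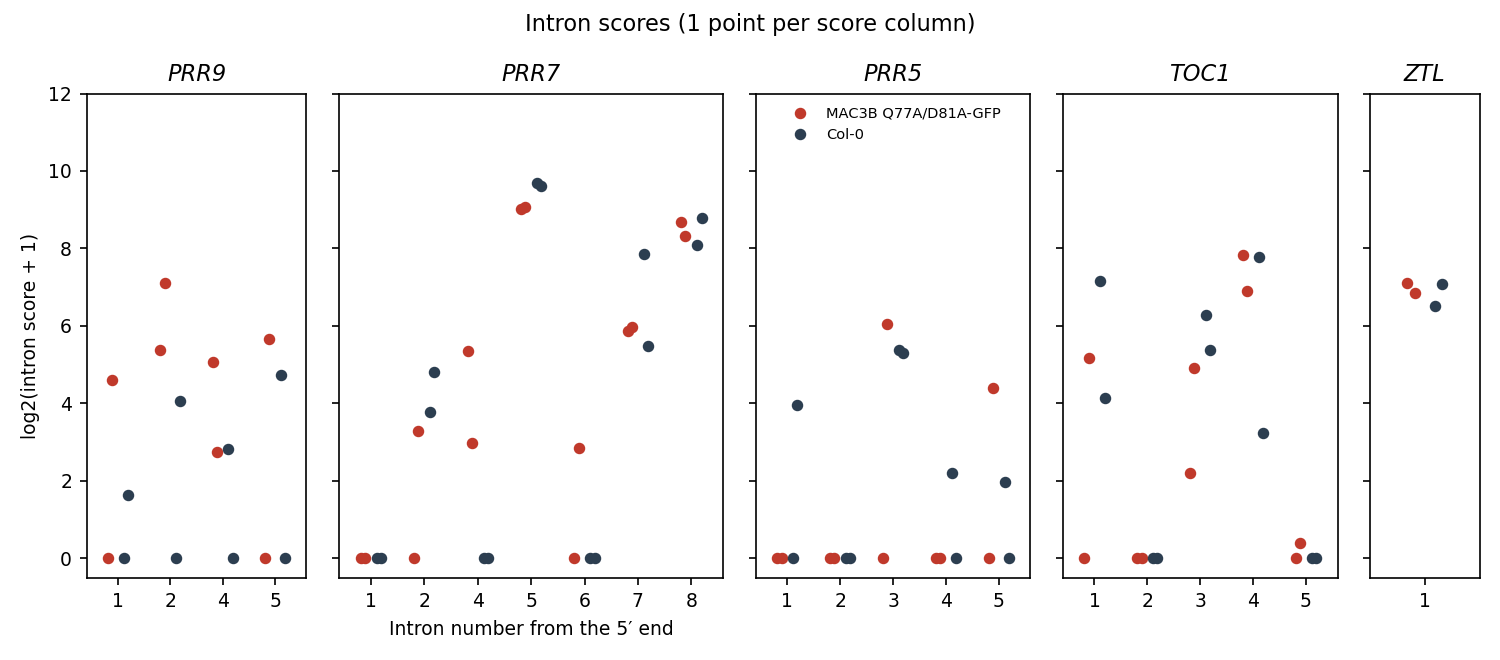
Coverage scores on the log2(score + 1) scale of the scored introns of PRR9, PRR7, PRR5, TOC1 and ZTL by intron number, each point a column, mutant left of wild type. PRR7 introns 5 and 8 stand highest in all 4 columns, and the mutant columns of PRR9 intron 2 lie above its wild-type columns.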

How the data were processed

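Gene counts were deposited by the authors as raw counts, produced, per the file headers, by featureCounts 2.0.1 from read pairs on annotated TAIR10 exons without strand, with summed exon length as an other value. The authors' deposited DESeq2 table (DESeq2 1.30.1 per the submitters' processing notes, which also list HISAT2 2.2.0 and STAR 2.7.9a) holds the mean scaled count (a signal), log2 fold change with its error, Wald statistic (a score), p-value and adjusted p-value. The deposited rMATS table holds p-values, false discovery rates, an inclusion difference (a score) and other values, namely junction reads, levels and effective lengths. The deposited intron table holds coverage scores (a signal) and mean log2 values per genotype from the authors. Which aligner made which file is not given in the sources used here, and 12 further columns of single-library values were not used.

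Counts were tested in R 4.3.3 with edgeR 4.0.16 (filterByExpr, TMM, glmQLFit and glmQLFTest, all 4 libraries, genotype as the only term, Benjamini-Hochberg adjustment at 0.05). Standard errors and intervals came from the quasi-likelihood F statistic. The floor for a gene at 0 was 3 counts and covers counting error only. Intron scores above 0 in at least 1 column were tested with limma 3.58.1 (eBayes with trend) on log2(score + 1). The pseudocount understates changes of low introns, and where a column is at 0 the size of the difference depends on it. The tests were run on simulated data first. The gene test recovered 40 of 67 genes changed 1.5-fold, 52 of 67 changed 2-fold and 62 of 66 changed 4-fold. Smaller changes were not simulated, and all members changed by less than 1.5-fold, so recovery at their sizes is not known. The intron test called none of the introns shifted in simulated scores, so it has little power with 2 columns per genotype. No mutant or wild-type pair agreed within sampling noise.

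Introns were numbered along the RefSeq transcript with most introns. Sequence came from the RefSeq copy of TAIR10 (Python 3.11.15), in which 97.4% of the score introns, 99.6% of the rMATS introns and 100% of the members' score introns have GT or GC at the first and AG at the last bases. The members and gene lists were chosen with earlier results of these data known. All members are named, as are list genes past the threshold, every rMATS event of a member, the most covered intron per member and the 3 genes nearest in pattern to a called member. Introns 2, 4, 7 and 8 of PRR7 and intron 3 of TOC1 were named after their values were seen. Alternatives were RLE size factors, library totals, other filters, DESeq2 1.42.0, other pseudocounts and each library left out.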

Additional observations from a re-analysis of the deposited data

How the results depend on the processing

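Of the values for single genes and introns, 132 kept their direction and side of the threshold under an alternative and 9 did not. PRR7 lost its call without wild-type replicate 1 (-0.44), and its other alternatives gave -0.40 to -0.44 with adjusted p from 3.23e-08 to 0.0477 (edgeR or DESeq2, Benjamini-Hochberg). TOC1 ran from -0.20 to 0.0074 with a library left out, above 0 without wild-type replicate 1. The number of members called was 0 (without wild-type replicate 1) to 2 (without mutant replicate 1, with GI) against 1, and of all genes 135 to 1848 with a library left out against 617, and 1090 with no filter on low counts. DESeq2 called 506 genes. With library totals alone 72.3% of called genes were higher against 55.9%. In such fits the lone library is assumed to vary like the other genotype. Among introns 0 passed, against 4 when only those above 0 in all columns were tested, and 0 to 7356 with a column left out. For member introns the range was 0 to 4. The 4 that passed without mutant column 1 (2 of PRR7, 1 of PRR3 and 1 of TOC1) were at 0 in both wild-type columns, which leaves no spread in that fit. Directions reversed for the PRR5 intron of 155 bases (-5.34 to 0.71 with a column left out, above 0 without mutant column 1), the TOC1 intron of 84 bases (-0.41 without wild-type column 2 to 4.12), the GI intron of 114 bases (0.20 relative to the gene's CPM, -2.42 to 2.32 with a column left out, above 0 without mutant column 2, at 2.27, and wild-type column 1) and the ZTL intron of 830 bases (-0.10 without wild-type column 1 to 0.48), and the cause was not tested. No paired analysis was run because the labels do not pair mutant with wild-type libraries. The titles and descriptions of the wild-type libraries also number them differently, and the numbers used here are those of the titles. PRR3 and ELF4 rest on 34 to 103 counts per library.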
